A study of Homo sapiens with 6 samples.

Results

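The genes described here carry the type I interferon signal from the cell surface to the nucleus. They are 9 genes listed by their role, with earlier results of these data known: the receptor chains IFNAR1 and IFNAR2, the receptor-bound kinases JAK1 and TYK2, the transcription factor subunits STAT2 and IRF9, and the interferon regulatory factors IRF1, IRF2 and IRF7. The count table holds 56638 rows, of which 13490 passed the filter on low counts and were tested, and all 9 genes were among them. The cells were MOLM-13, an established line from a human acute myeloid leukaemia that bears a KMT2A-MLLT3 fusion and has monocytic features. Cells received 2 µM UC-764864 for 24 h, or DMSO, the solvent, for the same time, with 3 libraries in each group. By the series title, the compound inhibits the ubiquitin-conjugating enzyme UBE2N, and the design text spells its name UC-744864. All libraries come from a single cell line, no interferon treatment is named in the labels, and nothing in them says that libraries of a group were separate cultures, so the p-values reflect library-to-library spread alone, and that spread may be technical.

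Type I interferons bind a receptor made of IFNAR1 and IFNAR2, which brings TYK2, attached to IFNAR1, together with JAK1, attached to IFNAR2. The kinases phosphorylate STAT2, which joins IRF9 in ISGF3, a complex that binds the interferon-stimulated response element (ISRE) of genes for antiviral proteins. IRF1, IRF2 and IRF7 bind related elements: IRF1 is an activator made after interferon gamma through a gamma-activated site (GAS), IRF2 competes with it, and IRF7 drives interferon alpha genes and is itself an interferon-induced gene.

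The UC-764864 libraries were UDI0051, UDI0052 and UDI0053 and held 17073654 to 25014437 counts, and the DMSO libraries were UDI0054, UDI0055 and UDI0056 and held 16136156 to 24511499. A count of 3, taken as the floor, was worth 0.123 to 0.198 CPM, which are counts scaled by library size. DMSO library UDI0055 holds 0 in 3799 rows that lie in 2 unbroken runs of the table. Those rows were left out, and none of the 9 genes lies in them. UDI0052 and UDI0056, 1 library of each treatment, had 8.60% and 8.79% of their counts in GC-rich genes, against 10.4% to 12.1% in the other 4 libraries. The myeloid identity of the line showed in CD33 and FLT3, at 134 ± 4.77 and 468 ± 47.8 CPM in UC-764864 cells and 107 ± 3.04 and 504 ± 35.4 CPM in DMSO cells (mean ± SD, n = 3 each). The monocyte markers CD14 and CD68 stayed under 1 CPM on average in both groups.

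Of the 9 genes, 1 was lower in UC-764864 cells at an edgeR adjusted p under 0.05, the receptor chain IFNAR1, and 0 were higher. At an unadjusted p under 0.05 the edgeR counts were 3 lower and 0 higher, against 16.6% and 14.9% of all tested genes. DESeq2 called 2 lower and 0 higher, against 10.2% and 6.35% of all tested genes, and limma-voom 1 lower and 0 higher, against 7.51% and 5.23%. By the edgeR adjusted p, 8.13% of all tested genes were called lower and 5.11% higher, so the share of 1 in 9 lay near the background. CPM of the groups did not overlap, with UC-764864 lower, for IFNAR1, IFNAR2 and IRF9, against 17% of all tested genes. JAK1 alone among the 9 had UC-764864 libraries all above the DMSO libraries, against 19% of all tested genes. The fold change, as log2 of UC-764864 over DMSO, was negative for 7 of the 9 genes, with a median of -0.12 against 0.01 over all tested genes. In a bulk sample, fewer cells that express a gene and less RNA per cell cannot be told apart.

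**Figure D1:**
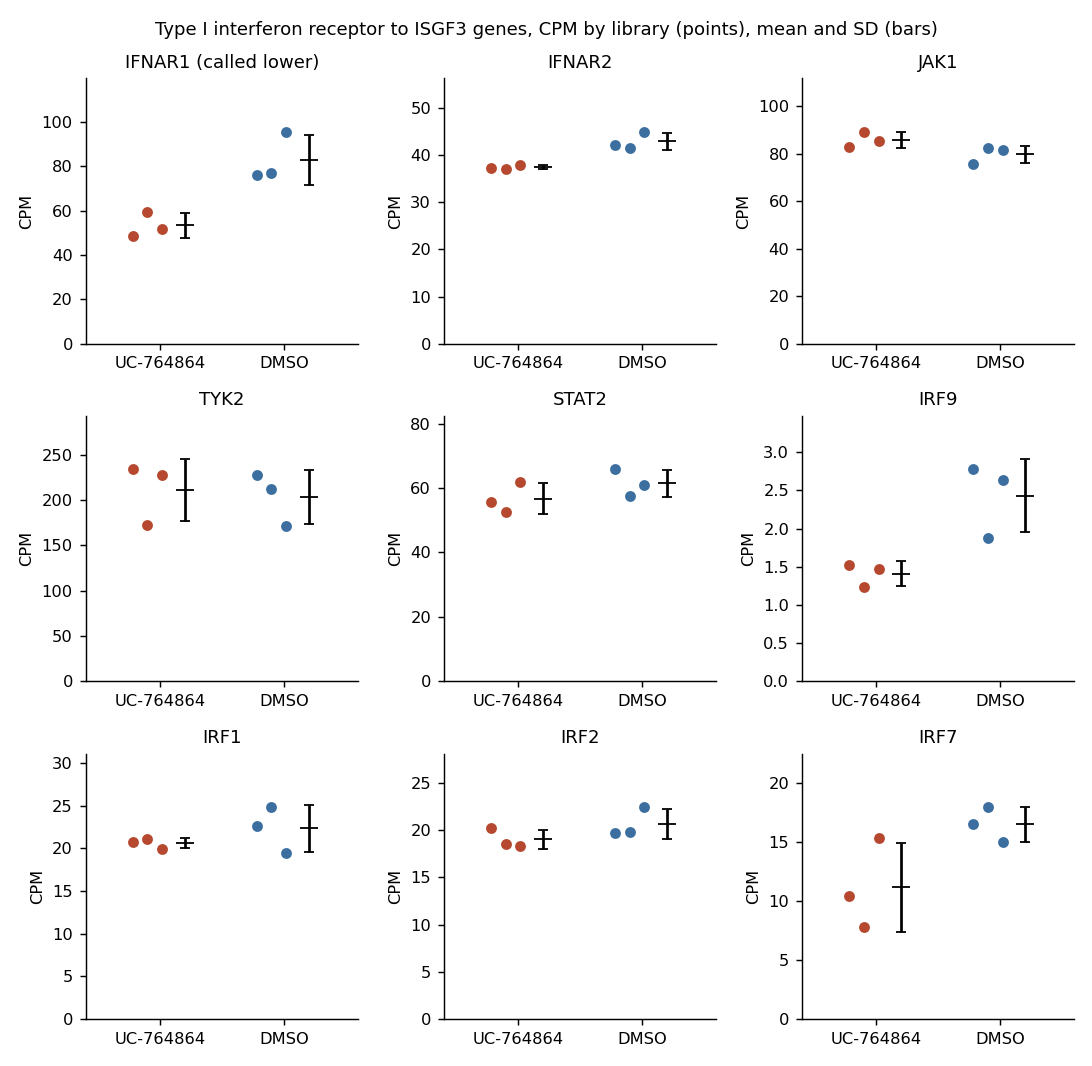
CPM of the 9 genes in each library (points, UC-764864 left of DMSO), with the group mean and SD as bars and each vertical axis starting at 0. The IFNAR1 panel shows 48.6 to 59.5 CPM in UC-764864 libraries, all below the 76.0 to 95.7 CPM of DMSO libraries, while the TYK2, STAT2, IRF1, IRF2 and IRF7 panels overlap.

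IFNAR1, the chain that carries TYK2, had 48.6, 59.5 and 51.9 CPM in UDI0051, UDI0052 and UDI0053 with UC-764864, against 76.0, 76.8 and 95.7 CPM in UDI0054, UDI0055 and UDI0056 with DMSO. The highest UC-764864 library stayed below the lowest DMSO library, and within each group the library with the lowest GC-rich share (UDI0052 and UDI0056) was the highest. Its transcript was 1.55-fold lower, with a log2 fold change of -0.64 ± 0.13 (SE) and an edgeR adjusted p of 0.0142. The change kept its direction in all 14 alternative settings, from -0.75 to -0.52. It missed the threshold without UDI0051 (edgeR adjusted p = 0.083), without UDI0053 (0.063) and when the rows at 0 in UDI0055 were kept in the test (0.0623). Without both UDI0052 and UDI0056, the value was -0.63 with an edgeR adjusted p of 0.0028.

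The window upstream of the IFNAR1 start is shown because IFNAR1 alone of the set was called by the edgeR adjusted p as reported. Neither interferon motif was found in this window. It is the 250 bases before the first annotated start on chromosome 21, chr21:33324145-33324394 on the plus strand of GRCh38.p14, from RefSeq, with no capitals because nothing matched.
IFNAR1 upstream window: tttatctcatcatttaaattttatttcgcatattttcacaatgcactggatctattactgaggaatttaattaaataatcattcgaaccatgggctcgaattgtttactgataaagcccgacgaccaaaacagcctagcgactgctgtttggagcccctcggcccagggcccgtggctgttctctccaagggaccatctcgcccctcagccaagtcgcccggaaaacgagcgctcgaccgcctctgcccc
The motifs searched were the ISRE core GAAANNGAAA and the GAS letters TTCNNNGAA, on both strands. Another annotated start of IFNAR1 has a window at chr21:33324720-33325019, not printed here, which held no match either. The absence of a match says only that these letters are not in these windows.

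IFNAR2, the chain that carries JAK1, had 37.3, 37.1 and 37.9 CPM in UC-764864 libraries, against 42.2, 41.6 and 45.0 CPM in DMSO libraries. The groups did not overlap, but the distance was small, at -0.20 ± 0.11 on the log2 scale with an edgeR adjusted p of 0.246. With the GC trend of each library removed, the edgeR adjusted p was 0.00605. In the GENCODE release 29 annotation of GRCh38, 44.2% of IFNAR2 exon bases are shared with a readthrough transcript and 39.1% lie opposite an antisense gene, so its count is uncertain.

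IFNAR1 lay further from DMSO than IFNAR2, its partner. The ratio of IFNAR1 to IFNAR2 CPM within a library was 1.30, 1.61 and 1.37 with UC-764864, against 1.80, 1.85 and 2.13 with DMSO. The ratio groups did not overlap, and the exact two-sided permutation test gave p = 0.1, the smallest that 3 against 3 allows, and 0.2 after adjustment over the 6 ratios compared. The ratio of IFNAR1 to IFNGR2, a chain of the interferon gamma receptor encoded beside it, was 0.818, 0.913 and 0.768 with UC-764864, against 0.995, 1.02 and 1.15 with DMSO, again with an exact permutation p of 0.1.

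The genes of these receptor chains sit near each other on chromosome 21, and their neighbours were read in the order of the table. IL10RB, a chain of the interleukin 10 and interferon lambda receptors that lies between IFNAR2 and IFNAR1, had a log2 fold change of -0.06 (edgeR adjusted p = 0.746). IFNGR2 stood at -0.29 (edgeR adjusted p = 0.106) and TMEM50B, the next gene in the table, at -0.40 (0.065), neither past the threshold. IFNAR1 was the only called gene of the 6 tested in this stretch of the table.

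**Figure D2:**
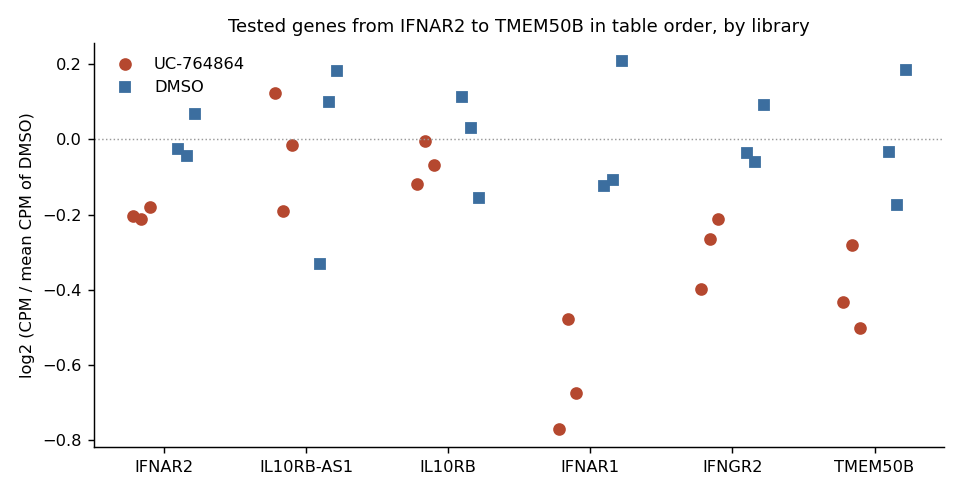
Log2 of CPM over the mean DMSO CPM for the tested genes from IFNAR2 to TMEM50B in the order of the count table, with UC-764864 libraries as circles left of DMSO libraries as squares. IFNAR1 has the lowest UC-764864 mean, with a fitted log2 fold change of -0.64, while IL10RB beside it stands at -0.06.

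Neither kinase was called. JAK1 had 82.9, 89.3 and 85.2 CPM in UC-764864 libraries, against 75.7, 82.2 and 81.5 CPM in DMSO libraries, with every UC-764864 library above every DMSO library. Its log2 fold change was 0.10 ± 0.11 (edgeR adjusted p = 0.538), and no alternative setting brought it past the threshold. TYK2 had 234, 172 and 227 CPM in UC-764864 libraries, against 228, 212 and 171 CPM in DMSO libraries. The spread of TYK2 lay within the groups: UDI0052 and UDI0056 were the lowest of their group. Of the bases of its longest transcript, 61.3% are G or C. Its log2 fold change was 0.05 ± 0.15 (edgeR adjusted p = 0.839) and turned to -0.03 without UDI0051 and to -0.06 without UDI0056. The TYK2 to JAK1 ratio overlapped between groups (exact permutation p = 0.8).

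Of the ISGF3 subunits, STAT2 had 55.7, 52.5 and 61.9 CPM in UC-764864 libraries, against 65.9, 57.6 and 61.0 CPM in DMSO libraries. The groups overlapped, and the log2 fold change was -0.12 ± 0.12 (edgeR adjusted p = 0.532).

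IRF9, the DNA-binding subunit of ISGF3, had the fewest counts of the 9 genes. It had 34, 19 and 28 counts in UC-764864 libraries, against 63, 46 and 40 counts in DMSO libraries, or 1.53, 1.23 and 1.47 CPM against 2.78, 1.88 and 2.64 CPM. The groups did not overlap, and the log2 fold change of -0.76 ± 0.24 was the most negative of the set, with an edgeR adjusted p of 0.0544 that missed the threshold. IRF9 passed the threshold without UDI0055 (edgeR adjusted p = 0.0181), with the GC trend removed (0.0156), without the filter on low counts (0.0326) and under scaling by library size alone (0.0479). The ratio of IRF9 to STAT2 was 0.0275, 0.0234 and 0.0238 with UC-764864, against 0.0423, 0.0327 and 0.0432 with DMSO (exact permutation p = 0.1). In GENCODE release 29, 48.4% of IRF9 exon bases are shared with a readthrough gene, so its count is uncertain. None of the genes near IRF9 read with it was called: REC8 stood at -0.59 (edgeR adjusted p = 0.102), RNF31 at 0.22 (0.366) and PSME2 at 0.29 (0.1).

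Among the other interferon regulatory factors, IRF7 had 10.4, 7.83 and 15.3 CPM in UC-764864 libraries, against 16.5, 18.0 and 15.0 CPM in DMSO libraries. UDI0053 lay inside the DMSO range, so the groups overlapped, and the log2 fold change of -0.56 ± 0.21 had an edgeR adjusted p of 0.088. Without UDI0053, IRF7 stood at -0.85 with an edgeR adjusted p of 0.0312. IRF7 is the most GC-rich of the 9 genes, at 66.8% of the bases of its longest transcript, and was lowest in UDI0052 and UDI0056 within their groups. With the GC trend removed its edgeR adjusted p was 0.0146, and the other settings that brought it past the threshold were no filter (0.00744), DESeq2 (0.042) and leaving out UDI0056 (0.0458).

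IRF1 and IRF2, the activator and its competitor, overlapped between groups. IRF1 had 20.8, 21.1 and 19.9 CPM in UC-764864 libraries, against 22.6, 24.9 and 19.5 CPM in DMSO libraries, a log2 fold change of -0.12 ± 0.13 (edgeR adjusted p = 0.565). IRF2 had 20.2, 18.5 and 18.3 CPM in UC-764864 libraries, against 19.7, 19.8 and 22.5 CPM in DMSO libraries, also -0.12 ± 0.13 (edgeR adjusted p = 0.561). The ratio of IRF2 to IRF1 averaged 0.922 ± 0.0474 with UC-764864 and 0.940 ± 0.191 with DMSO (SD, n = 3 each; exact permutation p = 1). Of IRF1 exon bases, 22% lie opposite C5orf56 and 6.01% opposite another gene, so its count is uncertain as well.

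The removal of each library's GC trend changed the count for the set more than any other setting. It could be applied to the 11647 tested genes with a GC value, of which 15.4% were then called lower and 16.2% higher. In that fit 6 of the 9 genes were lower: IFNAR1, IFNAR2, STAT2, IRF9, IRF1 and IRF7. STAT2 and IRF1 passed in no other setting, with edgeR adjusted p of 0.0304 and 0.0372 there. TYK2, JAK1 and IRF2 stayed outside the threshold in every setting. Leaving out UDI0052 and UDI0056 gave 1 of 9 called lower, against 8.98% of all tested genes.

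**Figure D3:**
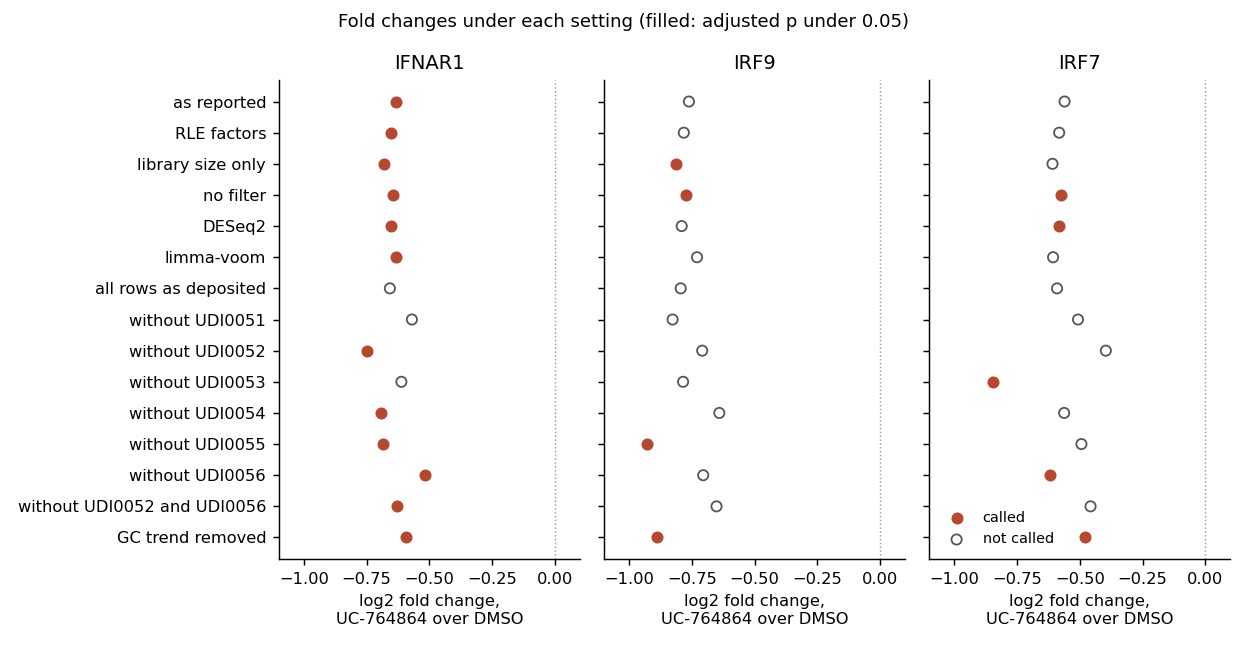
Log2 fold changes (UC-764864 over DMSO) of IFNAR1, IRF9 and IRF7 as reported and under each of 14 other settings, filled where the adjusted p was under 0.05. All points lie below 0. IFNAR1 is filled in all but 3 of the alternatives, IRF9 in 4 and IRF7 in 5.

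Levels between genes were compared per kilobase of annotated exon, as CPM per kb. The length joins all annotated exons of a gene and can exceed any single transcript, so the order depends on it. IRF1 was given 7.80 kb and IRF2 3.12 kb. Their unscaled levels were 20.6 and 19.0 CPM in UC-764864 cells and 22.3 and 20.7 CPM in DMSO cells. The counts of IFNAR2, IRF9 and IRF1 are also uncertain because their exons overlap other genes. TYK2 stood first at 31.1 ± 4.99 CPM per kb with UC-764864 and 30.0 ± 4.37 with DMSO, far above the rest, and IRF9 last at 0.372 ± 0.0423 with UC-764864 and 0.641 ± 0.127 with DMSO (mean ± SD, n = 3 each). IFNAR1 was the fourth in UC-764864 cells, at 8.47 ± 0.892 CPM per kb, and the second in DMSO cells, at 13.2 ± 1.77. In UC-764864 cells its libraries overlapped those of its neighbours in the order, STAT2 (9.29 ± 0.786) and IFNAR2 (8.11 ± 0.0896), and in DMSO cells those of JAK1 (12.6 ± 0.565). JAK1 followed TYK2 in UC-764864 cells at 13.6 ± 0.517. Below IFNAR2 both groups had the order IRF2, IRF7, IRF1 and IRF9, and of these neighbours IRF2 and IRF7 overlapped, in DMSO cells only. IRF2 stood at 6.10 ± 0.339 with UC-764864 and 6.63 ± 0.519 with DMSO, IRF7 at 4.25 ± 1.44 and 6.28 ± 0.559, and IRF1 at 2.64 ± 0.0773 and 2.87 ± 0.348, the UC-764864 value first each time.

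The ligands were not detectable at this depth. Of 21 type I, II and III interferon genes, 19 had 0 counts in all 6 libraries. IFNA13 and IFNB1 had 1 count each, both in DMSO libraries, which is under the floor of 3 counts.

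The genes that share steps with the 9 were described by list. Of 8 other JAK and STAT genes, edgeR, DESeq2 and limma-voom each called 0 in either direction (2 lower and 1 higher at an unadjusted edgeR p under 0.05), and their median log2 fold change was -0.0039 against 0.01 over all tested genes. The gene with the smallest p was STAT4, which relays interleukin 12, at -1.49 ± 0.50 (edgeR adjusted p = 0.0703), with 0.244 ± 0.201 CPM in UC-764864 cells and 0.661 ± 0.0892 CPM in DMSO cells. STAT4 passed the threshold without UDI0052 (-2.17, edgeR adjusted p = 0.0435), without both UDI0052 and UDI0056 (-2.17, 0.0367), with no filter (0.0305) and with the GC trend removed (0.0333). Of 6 tested genes among the other IRFs and IRF2 partners, the 3 tools also called 0 (0 lower and 1 higher at an unadjusted edgeR p under 0.05), with a median of -0.02. IRF8, a factor of monocyte and dendritic cell development, had 564 ± 19.3 CPM in UC-764864 cells and 461 ± 46.2 CPM in DMSO cells (log2 0.29, edgeR adjusted p = 0.0959).

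Of 9 tested chains of other receptors that use JAK1 or TYK2, 1 was lower and 0 higher by edgeR, with a median of -0.16. Of all tested genes, 8.13% were lower and 5.11% higher by edgeR, and 16.6% and 14.9% at an unadjusted edgeR p under 0.05. DESeq2 and limma-voom called 1 of these chains lower and 1 higher. An unadjusted edgeR p under 0.05 held for 4 of the chains lower and 1 higher. The lower one was IL6ST, the signalling chain of the interleukin 6 family, at 9.02 ± 2.00 CPM in UC-764864 cells and 14.6 ± 2.31 CPM in DMSO cells (log2 -0.70, edgeR adjusted p = 0.0285). IL6ST missed the threshold without UDI0051 (edgeR adjusted p = 0.134), UDI0053 (0.109) or UDI0054 (0.0548) and with all rows as deposited (0.0951), and stood at -0.32 with the GC trend removed (0.0575). Of 16 negative regulators of interferon signalling, 2 were lower and 0 higher by edgeR, with a median of 0.07. DESeq2 called 3 lower and limma-voom 1, both with 0 higher, and an unadjusted edgeR p under 0.05 held for 4 lower and 5 higher. SOCS2, a feedback inhibitor of cytokine receptors, had 166 ± 2.69 CPM in UC-764864 cells and 247 ± 16.1 CPM in DMSO cells (log2 -0.57, edgeR adjusted p = 0.00934). USP18, an interferon-induced protein that binds IFNAR2 and blocks its signal, had 2.85 ± 0.357 CPM in UC-764864 cells and 5.22 ± 1.54 CPM in DMSO cells (log2 -0.84, edgeR adjusted p = 0.0374). SOCS2 missed the threshold without UDI0051 (edgeR adjusted p = 0.0606), and USP18 without any single library but UDI0055 (0.072 to 0.122). USP18 also missed it without both UDI0052 and UDI0056 (-0.59, edgeR adjusted p = 0.131), with all rows as deposited (0.0902) and by limma-voom (0.0592).

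The genes at the end of the pathway were read next, beside the 8.13% and 5.11% called over all tested genes. Of 48 tested ISGF3 target genes, 22 were lower (45.8%) and 1 was higher (2.08%), with a median log2 fold change of -0.59. IFI6, an interferon-induced mitochondrial protein, had 3.02, 2.07 and 2.68 CPM in UC-764864 libraries, against 14.6, 14.5 and 12.2 CPM in DMSO libraries, 5.26-fold lower (log2 -2.40 ± 0.18, edgeR adjusted p = 9.94e-05). OAS2 and OAS1, which make the activator of RNase L, stood at -2.21 and -2.01, and IFI44L at -3.88, with edgeR adjusted p of 0.00122, 0.00133 and 0.0014. IFI44L had 0.158 to 0.194 CPM in UC-764864 libraries, close to the floor, and 1.60 to 3.69 CPM in DMSO libraries. TRIM14, an adaptor of mitochondrial antiviral signalling, was the gene that rose, with 108 ± 9.25 CPM in UC-764864 cells and 73.6 ± 12.3 CPM in DMSO cells (log2 0.56, edgeR adjusted p = 0.0247). TRIM14 missed the threshold without UDI0051, UDI0052, UDI0053 or UDI0054 (edgeR adjusted p = 0.0531 to 0.125) and with all rows as deposited (0.0824).

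Of 23 tested IRF1 and GAS target genes, 8 were lower (34.8%) and 0 higher by edgeR, with a median of -0.30, and DESeq2 and limma-voom called 7 lower and 0 higher. An unadjusted edgeR p under 0.05 held for 11 lower and 2 higher. Among the first in order of p were ICAM1, an adhesion molecule (-1.03, edgeR adjusted p = 0.00222), HLA-B, an antigen-presenting class I chain (-0.77, 0.00321), and GBP5, an interferon-induced GTPase (-1.20, 0.0114). HLA-B is a close copy of other class I genes, so its count is uncertain. Both target lists were chosen with earlier results of these data known, so their counts are no independent evidence of a direction. Without UDI0054, the edgeR counts of lower genes were 12 ISGF3 targets and 4 IRF1 and GAS targets, and the second count was also 4 without UDI0051 or UDI0053. With the rows at 0 in UDI0055 kept, they were 11 and 2.

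**Figure D4:**
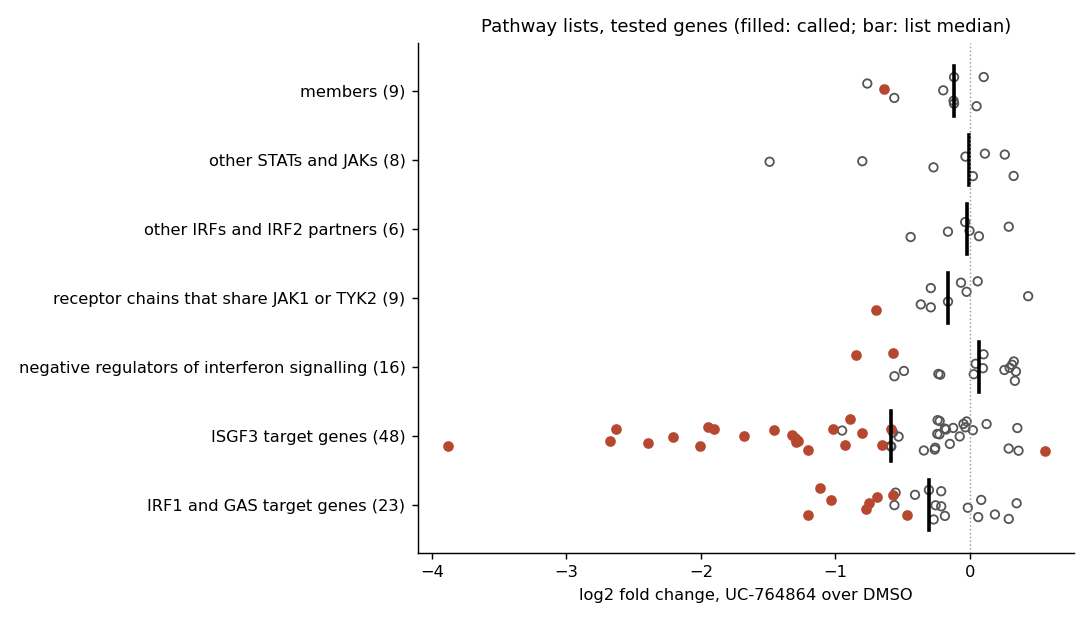
Log2 fold changes (UC-764864 over DMSO) of the tested genes of each list, filled where called, with the list median as a bar and the number tested in brackets. The ISGF3 targets reach -3.88 with a median of -0.59, whereas the 9 genes named members lie between -0.76 and 0.10 with a median of -0.12.

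Promoter windows from RefSeq (GRCh38.p14), 250 bases before to 50 after each annotated start, were read for the 2 motifs. Entries were found for 6 of the 9 genes, all but IFNAR2, IRF2 and IRF7. The ISRE core was found in 0 of the 6, in 30 of 40 ISGF3 target genes with an entry (75%), in 13 of 20 IRF1 and GAS target genes (65%) and in 4.38% of all 27305 genes with an entry. Some genes have several windows, and 3.57% of all 35116 windows held it. The GAS letters were found in 2 of the 6, IRF1 and IRF9, in 11 of the 40 (27.5%), in 5 of the 20 (25%) and in 9.38% of all genes (7.66% of all windows).

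The matched stretches of IRF1 and IRF9 are shown beside those of the targets IFI6 and IFI44L, as examples of each motif. Capitals mark the match, and each stretch adds 10 bases on either side, in the direction of the gene. None of these matches overlapped one of the other motif. IRF1 lies on the minus strand at chr5:132490879-132490907, with its match starting at -124 from the annotated start. IRF9 lies on the plus strand at chr14:24161192-24161220, at -63. IFI6 lies on the minus strand at chr1:27672329-27672358, at -156, and IFI44L on the plus strand at chr1:78620274-78620303, at -164, all in GRCh38.p14.
IRF1 GAS: acagcctgatTTCCCCGAAatgacggcac
IRF9 GAS: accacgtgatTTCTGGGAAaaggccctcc
IFI6 ISRE core: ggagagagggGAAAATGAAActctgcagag
IFI44L ISRE core: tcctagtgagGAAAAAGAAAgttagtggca
A match describes letters and was not read as a bound site.

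Across all tested genes with an entry, the ISRE core stood in 45 of 696 genes called lower (6.47%), in 14 of 489 called higher (2.86%) and in 308 of 7524 not called (4.09%). Within the ISGF3 target list, where most genes hold the core, it stood in 13 of the 17 lower genes with an entry (76.5%) and in 14 of the 20 that were not called (70%). TRIM14, the 1 higher gene of that list, held it as well.

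**Figure D5:**
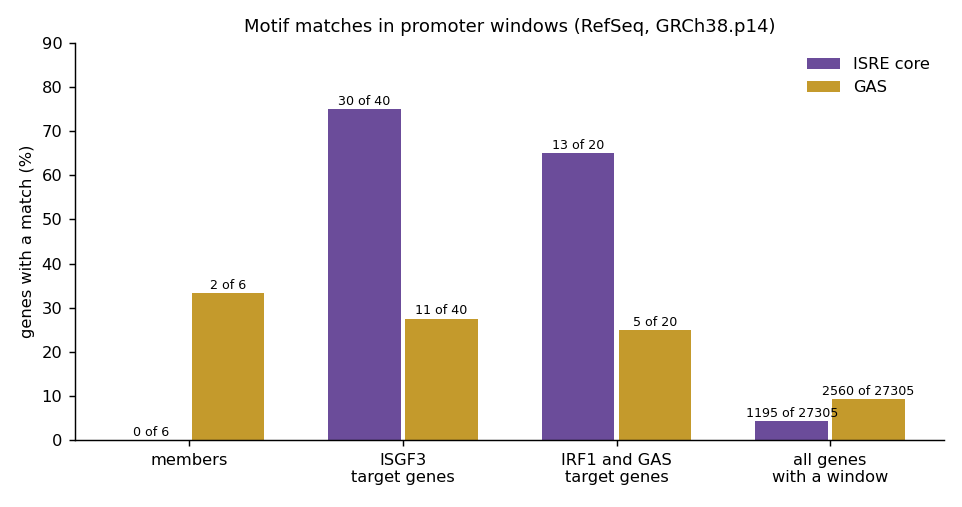
Share of genes with a promoter entry whose windows hold the ISRE core or the GAS letters, for the 9 genes (named members, 6 with an entry), both target lists and all genes, with the counts above the bars. The ISRE core stands at 0 of 6 and 30 of 40 in the first pair of lists, against 4.38% of all genes.

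By the pattern of levels over the 6 libraries, the genes most like IFNAR1 among 9870 candidates were SLC39A8, a zinc and manganese transporter, and ZFP1, a zinc finger gene, with root mean square differences of 0.0228 and 0.0281 in centred log2 CPM. SLC39A8 had 56.8 ± 4.60 CPM in UC-764864 cells and 87.8 ± 12.7 CPM in DMSO cells, and ZFP1 had 10.7 ± 1.09 CPM in UC-764864 cells and 16.6 ± 1.92 CPM in DMSO cells (SD, n = 3 each). As in IFNAR1, the highest library of each group was UDI0052 with UC-764864 and UDI0056 with DMSO. Both genes were picked for this likeness, so the shared pattern follows from the choice.

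Markers of other cell types were read beside these results. Over all tested genes, edgeR called 8.13% lower and 5.11% higher. A list of 4 tested genes is too short for its share to be compared with these. Of 12 tested myeloid markers, 3 were lower (ITGAM, HOXA9 and CSF1R) and 1 higher, LYZ, which encodes lysozyme (log2 0.88, edgeR adjusted p = 0.00141). The summed level of the myeloid list was 6556 to 7580 CPM in UC-764864 libraries and 4365 to 4699 CPM in DMSO libraries, most of it LYZ. Without LYZ the sum ran the other way, at 1221 to 1248 CPM in UC-764864 libraries and 1311 to 1404 CPM in DMSO libraries. Plasmacytoid dendritic cells, which make interferon, had 2 of 4 tested markers lower, PTCRA and SPIB, and a sum of 6.54 to 7.89 CPM in UC-764864 libraries and 9.32 to 10.1 CPM in DMSO libraries. PTCRA averaged 0.152 CPM in UC-764864 cells, close to the floor, and 0.574 CPM in DMSO cells. TCF4 of the same list lay higher without overlap, at 2.57 ± 0.228 CPM in UC-764864 cells and 2.03 ± 0.240 CPM in DMSO cells (log2 0.36, edgeR adjusted p = 0.251). The sum leaves out IL3RA, a row at 0 in UDI0055, which had 87.4 to 95.8 CPM in UC-764864 libraries and 115 and 118 CPM in the other DMSO libraries, far above the sum. The defining markers of that cell type, CLEC4C, LILRA4 and GZMB, averaged 0.112, 0.0216 and 0.00 CPM in UC-764864 cells and 0.138, 0.0136 and 0.0147 CPM in DMSO cells. Of 4 tested lymphoid markers 1 was lower, CD3D, with a sum of 33.2 to 46.4 CPM in UC-764864 libraries and 50.1 to 57.8 CPM in DMSO libraries, most of it NKG7, and with CD2, CD3G and MS4A1 at 0 throughout. CD3D averaged 0.507 CPM in UC-764864 cells and 1.09 CPM in DMSO cells. Of 4 tested stromal and epithelial markers 1 was lower, PDGFRB, with a sum of 18.8 to 20.4 CPM in UC-764864 libraries and 19.1 to 22.8 CPM in DMSO libraries. PDGFRB averaged 0.554 CPM in UC-764864 cells and 1.55 CPM in DMSO cells. No erythroid or megakaryocyte marker was tested, and their sum was 0.129 to 0.526 CPM in UC-764864 libraries and 0.461 to 0.751 CPM in DMSO libraries, with 7 of 10 at 0. With 1 library left out, CSF1R, PTCRA, SPIB and CD3D each missed the threshold for 2 to 5 of the 6 choices, and ITGAM, HOXA9, LYZ and PDGFRB for 0. Without both UDI0052 and UDI0056, PTCRA (edgeR adjusted p = 0.0662), SPIB (0.0817) and CD3D (0.111) were not called. The part of the shifts in myeloid markers in the results for the 9 genes was not tested.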

How the data were processed

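Per the labels' protocols, the libraries were made from poly(A) RNA and sequenced from both ends. The deposited values are raw counts per gene, and the authors applied no normalization to them. The submitters' processing notes name HISAT2 2.0.5, featureCounts 1.5.2, FastQC 0.11.7 and the build GRCh37, without their roles. The annotation release is not given in the sources used here, nor is the strand setting. Genes that overlap others are therefore called uncertain.

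The deposited table gives each column a treatment and no replicate number, so libraries go by their column names. Rows at 0 in the 2 runs of UDI0055 were read as missing, and 52839 of 56638 rows were used. The fit used edgeR 4.0.16 under R 4.3.3, with filterByExpr, TMM factors (0.978 to 1.03) and the quasi-likelihood F test of treatment. Benjamini-Hochberg adjustment ran over 13490 genes, and the threshold was 0.05. CPM use TMM-scaled library sizes, with a prior count of 2 where logged for likeness. The standard error is the size of the log2 fold change over the square root of F. Library pairs were checked by chi-square, and no pair came down to sampling noise. The lowest value was 4.69 per degree of freedom, for UDI0051 and UDI0053. UDI0053 with UC-764864 and UDI0055 with DMSO stood at 19.5. UDI0055 differed more from UDI0054 (20.9) and UDI0056 (44.7) of its own group. The other pairs across treatments stood at 31.1 to 85.4. Floors cover counting error only, since reads carry no molecular identifiers. The script was tested on simulated data with known fold changes.

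The 9 genes, the 12 other lists and the tests were chosen with earlier results of these data known. Named genes are the 9, the called genes of each other list in order of p (up to 4 in each direction, or the 1 with the smallest p where none was called), and the 2 genes most like a called gene of the 9, with a mean of at least 5 CPM. The neighbours of IFNAR1 and IRF9, and markers given as levels, are named outside that rule, after their values were seen. Some genes of the lists are counted but not reported here by name. Exon lengths, GC content (of the longest transcript) and overlaps are from GENCODE release 29 (GRCh38). Promoters are from RefSeq (GRCh38.p14), and neither is the build of the counts. Alternatives were DESeq2 1.42.0, limma-voom (limma 3.58.1), relative log expression (RLE) factors, library size alone, no filter, all rows as deposited, a fit with each library's GC trend removed (lowess span of 0.3), and leaving out libraries.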

Additional observations from a re-analysis of the deposited data

How the results depend on the processing

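Each of 33 named genes was refitted under 14 alternatives, and 389 of the 462 values kept both direction and call. Of the others, 54 lost a call, 17 gained one and 2 turned in direction. The turned values were TYK2, which ranged from -0.059 to 0.151 when single libraries were left out. Of 23 called named genes, 9 kept their call throughout.

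With library size alone, 2 of the 9 genes were called lower, against 9.42% of all tested genes. No filter gave 3 (6.89% of all tested genes), DESeq2 2 (10.2%), all rows as deposited 0 (0.891%) and the GC trend removed 6 (15.4%). The count for the 9 ranged from 0 to 2 when 1 library was left out, against 2.03% to 12.6% of all tested genes. In every setting 0 of the 9 were called higher. ISGF3 targets called lower numbered 11 with all rows as deposited and 12 to 24 with 1 library left out. Those called higher numbered 2 with DESeq2, 0 with all rows, 3 with the GC trend removed and 0 to 3 with 1 library left out. IRF1 and GAS targets called lower numbered 2 with all rows, 13 with the GC trend removed and 4 to 9 with 1 library left out, and those called higher 1 with the GC trend removed and 0 to 2 with 1 library left out.

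Over all genes, 1097 were lower and 690 higher as reported. No filter called 1676 lower, all rows as deposited 125 lower and 22 higher, and the GC trend removed 1792 lower and 1881 higher. Leaving out 1 library gave 278 (without UDI0051) to 1729 (without UDI0055) lower and 62 to 1525 higher, with the extremes of both directions from UDI0051 and UDI0055. Leaving out UDI0053 or UDI0054 moved both counts by over 1.5 times as well, and leaving out UDI0052 the higher one. The share of calls that were higher was 38.6% as reported, 28.6% with library size alone, 15% with all rows and 51.2% with the GC trend removed, and ran from 16.5% to 46.9% with 1 library left out. The causes were not tested. Fewer libraries in a fit leave fewer degrees of freedom. No paired analysis was possible because the columns of the count table carry no replicate numbers. IRF9, with 19 to 63 counts a library, had the fewest counts of the 9 genes. The part of its exon overlap in that low count was not tested.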
